A study of Mus musculus with 8 samples.

Results

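The Notch genes described here are 4 receptor genes (Notch1, Notch2, Notch3 and Notch4), 4 ligand genes (Dll1, Dll4, Jag1 and Jag2) and 2 target genes (Hes1 and Heyl). They were chosen by name, with earlier results of these data known, as members of a pathway that keeps muscle stem cells quiescent. All 10 were found in the RefSeq gene table of GRCm38.p6, which matches the mm10 build of the files. Every deposited cluster that met a gene or the 3000 bp on either side of it by at least 1 bp was assigned to that gene, which gave 31 of 27878 clusters. No cluster fell to more than 1 of the 10 genes.

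Reduced representation bisulfite sequencing, which reads cytosine methylation in the part of the genome that is rich in CpG, was done on DNA of sorted skeletal muscle stem cells from mice of the strain Tg:Pax7-nGFP/+. The 4 fixed samples were labelled Fixated and, per the design text, had been treated with 0.5% paraformaldehyde. The 4 live samples were labelled Live. The labels state 1 animal per replicate and a DNA extraction kit made for fixed, paraffin-embedded tissue in both groups, and give no age. All 8 samples share the Pax7 reporter allele. The series title speaks of fixation in situ and the design text of fixation after isolation, so when the cells were fixed is not settled by these sources. The question was whether fixation changes DNA methylation. The cluster lists hold coordinates and the authors' verdict on each cluster. The lists carry no methylation level, no read depth and no value per animal, so the spread between animals is unknown and the labelled cell type could not be checked by marker genes.

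In Notch signalling a ligand on one cell binds a receptor on its neighbour. The receptor is then cut, and its intracellular part enters the nucleus, joins the DNA-binding protein Rbpj and switches on genes of the Hes and Hey families. In adult mouse muscle, loss of Rbpj from the stem cells is known to end their quiescence. CpG-rich sequence around gene starts, which this assay samples well, is usually unmethylated in mammalian cells.

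A cluster, as far as these windows show it, is a single CpG site or a stretch that begins and ends on CpG sites, and the Notch promoters show what some of the clusters cover. RefSeq promoter sequences, each of 250 bases before and 50 bases from a gene start, were listed for 8 of the 10 genes, with 9 starts, since Dll1 has 2; Hes1 and Heyl were not matched. Of the 9 windows, 2 met a cluster (Jag1 and the inner start of Dll1), beside 9.77% of the 21262 listed protein-coding windows. The window of Jag1 was inside a cluster over all of its 300 bases, which was so for 94 of the 21262 windows, or 0.442%. The 250 bases before 4 starts are shown 5′ to 3′ on the gene's own strand, with each CpG in capitals, to set the covered Jag1 promoter beside 3 promoters that held no cluster base. They lie at chr2:137116521-137116770 (minus strand, Jag1), chr12:112929496-112929745 (minus strand, Jag2), chr3:98013288-98013537 (plus strand, Notch2) and chr17:34564045-34564294 (plus strand, Notch4) of GRCm38.p6.
Jag1: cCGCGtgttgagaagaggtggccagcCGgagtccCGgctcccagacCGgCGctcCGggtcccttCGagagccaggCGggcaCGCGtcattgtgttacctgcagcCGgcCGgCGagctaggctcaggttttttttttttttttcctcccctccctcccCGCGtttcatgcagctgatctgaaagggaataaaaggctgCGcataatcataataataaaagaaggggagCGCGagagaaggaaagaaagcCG
Jag2: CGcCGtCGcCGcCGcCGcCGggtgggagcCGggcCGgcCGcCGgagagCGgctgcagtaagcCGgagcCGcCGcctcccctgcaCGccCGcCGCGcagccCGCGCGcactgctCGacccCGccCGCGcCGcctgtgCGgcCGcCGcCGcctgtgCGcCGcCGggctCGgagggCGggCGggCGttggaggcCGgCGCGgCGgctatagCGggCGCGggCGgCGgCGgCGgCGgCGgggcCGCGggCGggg
Notch2: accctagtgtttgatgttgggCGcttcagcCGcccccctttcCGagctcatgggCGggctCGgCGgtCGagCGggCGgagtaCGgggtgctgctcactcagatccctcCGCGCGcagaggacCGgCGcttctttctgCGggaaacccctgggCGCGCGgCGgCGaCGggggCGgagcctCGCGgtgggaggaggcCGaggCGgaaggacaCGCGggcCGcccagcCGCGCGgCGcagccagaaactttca
Notch4: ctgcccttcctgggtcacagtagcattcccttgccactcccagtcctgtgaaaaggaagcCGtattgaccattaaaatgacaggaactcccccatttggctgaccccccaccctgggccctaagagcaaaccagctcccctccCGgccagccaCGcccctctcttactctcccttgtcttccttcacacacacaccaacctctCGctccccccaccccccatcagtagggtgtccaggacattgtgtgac

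The count of CpG did not order these promoters by coverage. Jag1, fully covered, has 20 CpG in the bases shown. Jag2 has 54, Notch2 has 34 and Notch4 has 4, and none of these has a base in a cluster. Over the whole 300-base windows the 9 Notch starts had a median of 23 CpG, against 13 over all protein-coding windows, and 8 of the 9 lay above that median. Jag2 had 63 CpG, more than 99.96% of all windows. Over all windows, the share that met a cluster was 1.81% with 0 to 9 CpG, 11.1% with 10 to 19, 14.8% with 20 to 29 and 23.6% with 30 or more.

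**Figure D1:**
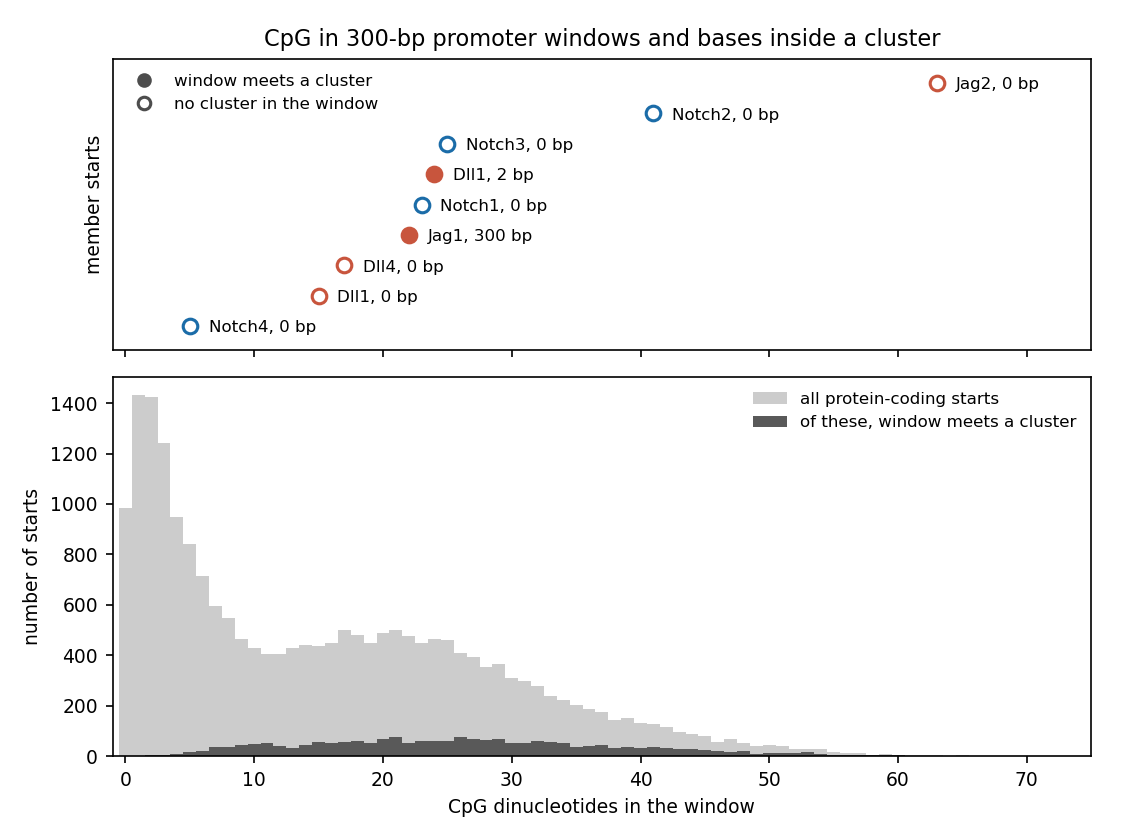
CpG dinucleotides in the 300-base promoter windows (x axis) of the 9 listed Notch starts (top, with the bases inside a cluster; blue for receptors, red for ligands; vertical order has no meaning) and of all 21262 protein-coding starts (bottom, number of starts, with those that meet a cluster in dark grey). The Jag2 and Notch2 windows, with 63 and 41 CpG, meet no cluster, while Jag1 with 22 CpG is covered over 300 bp.

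The tetramer CCGG is the site of MspI, the enzyme commonly used for this assay (the labels name a kit and no enzyme). It occurred in all 9 Notch windows, 7 times at Jag2, 6 times at Jag1 and at the inner start of Dll1, 5 times at Notch3 and once each at Notch1, Notch2 and Notch4, beside 62.2% of all protein-coding windows with at least 1. The heptamer GTGGGAA, a form of the Rbpj binding motif searched on both strands, was in none of the 9 windows and in 6.07% of all windows. The 9 windows are of receptors and ligands only, since the targets Hes1 and Heyl had no listed sequence. With so few windows, finding none cannot set them apart from that share.

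Of the Notch clusters of at most 2 bp, only that at Dll1 lay where a sequence was listed. It was a single CpG site. At the inner start of Dll1, which encodes a Delta-type ligand, the cluster at chr17:15375778-15375779 was 2 bp long and lay 44 bp past the start. The last 30 bases of that promoter window (chr17:15375774-15375803, minus strand) are shown with the 2 cluster bases in capitals.
Dll1: taccggtctagaacactctgggagCGgcag
These 2 bases are a CpG, and another CpG earlier in the same stretch lies outside the cluster. Of all clusters that began inside a listed promoter window and were longer than 1 bp, 1268 of 1269 began on a base of a CpG, as 1227 of 1227 that ended inside one ended on such a base. Of the clusters of 1 bp in these windows, 454 of 455 were a base of a CpG.

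No cluster at the Notch genes was called different between fixed and live cells. The authors called 21 of all 27878 clusters (0.0753%) and 0 of the 31 at the Notch genes, so that up to 9.68% could be called at this count. At the overall share, 0.0234 calls would fall on 31 clusters, so the count of 0 cannot set the Notch genes apart from the rest. The limit covers counting error only, and clusters of one gene are not independent. Chromosomes 2 and 16, which carry Notch1, Dll4, Jag1 and Hes1, held 0 called clusters. The called position nearest to a Notch gene lay 1.03 Mb from Notch3, at 31095763 on chromosome 17, with a median difference of -61.6 percentage points (p = 5.93e-06) in the authors' deposited table. Around the other genes with a called cluster on their chromosome, the nearest lay 1.82 Mb from Heyl, 2.84 Mb from Notch2, 3.29 Mb from Jag2, 3.47 Mb from Notch4 and 15.7 Mb from Dll1. The authors' deposited table does not say which group was subtracted from which, so its sign is not tied to fixation.

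All 10 Notch genes held at least 1 cluster, beside 47.8% of 21896 protein-coding genes in windows built the same way. At least 2 clusters were found at 9 of the 10, beside 23.5% of protein-coding genes, and at least 4 at 5 of the 10, beside 6.41%. The 408 kb of Notch windows held 0.76 clusters per 10 kb, against 0.19 over all protein-coding windows. Clusters covered 1.03% of the bases of the Notch windows, against 0.225% over all protein-coding windows. Of the 4191 covered bases at the Notch genes, 1256 lay in a single cluster at Jag1. These shares describe genes picked by name with earlier results of these data known, so they are not a blind comparison. Their relation to window length and CpG content was not tested. Receptors and ligands held 12 clusters each and the targets 7. Per 10 kb that was 0.43 for the receptors, whose genes span 24.3 to 137 kb, 1.19 for the ligands and 2.28 for the 2 targets, whose genes are 2.44 and 16.3 kb long. In a short gene most of the window is flank, so the values per 10 kb compare unlike stretches.

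**Figure D2:**
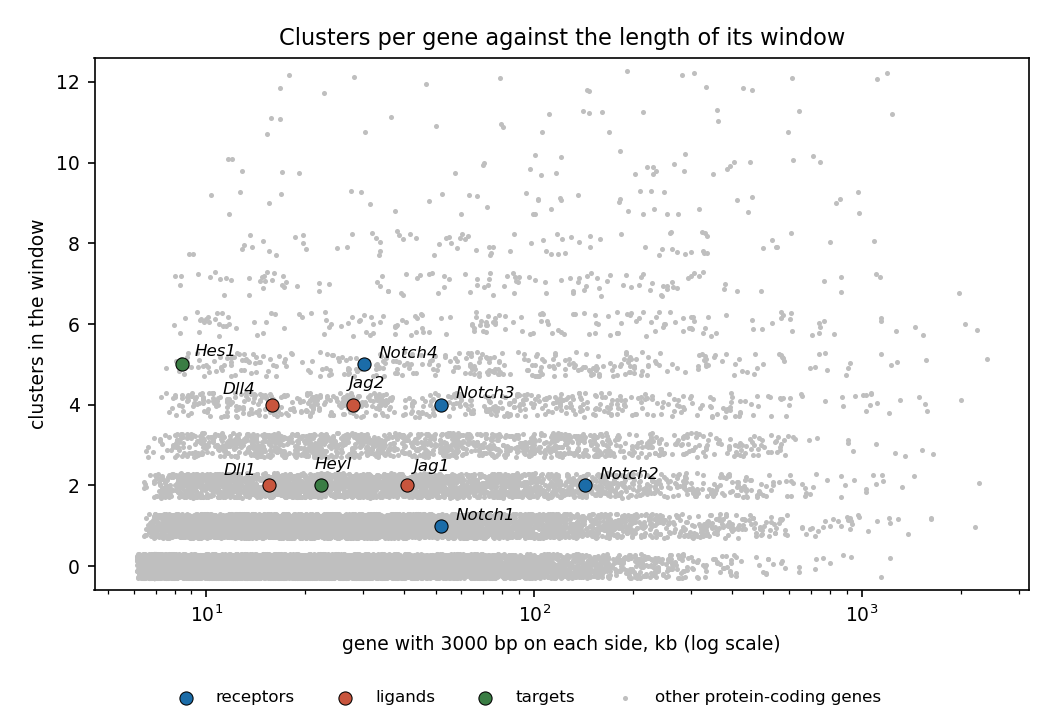
Number of clusters (y axis) against the length of the gene with 3000 bp on each side (x axis, kb, log scale) for the 10 Notch genes (coloured by role) and the other protein-coding genes (grey, one dot a gene, spread vertically at random within 0.3 of a count). Hes1 holds 5 clusters in the shortest of the Notch windows and Notch2 holds 2 in the longest; 54 grey genes with 13 to 38 clusters lie above the axis.

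Notch1, a receptor active in muscle stem cells, had the fewest clusters. Its single cluster (chr2:26460177-26460284, 108 bp) lay 43.5 kb past the start, at 94.9% of the gene's length. The flank before the start and the gene up to that point held no cluster. Of all protein-coding genes, 62.7% had fewer clusters per kb, a share that counts the genes with no cluster, while 47.8% held any. The rate at Notch1 was 0.193 clusters per 10 kb, close to the 0.190 over all protein-coding windows. Notch2 is the longest gene of the set. Its 2 clusters, of 98 and 78 bp, stood 5.53 and 133 kb past the start, at 4.08% and 97.0% of the gene, with 127 kb free of clusters between them. That was the widest gap among the Notch genes.

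Notch3, a receptor linked in mice to restraint of muscle stem cell proliferation, had 4 clusters on chromosome 17, spread from start to end. The cluster nearest the start was 324 bp long (chr17:32165873-32166196), longer than 95.4% of all clusters, and lay 694 bp into the gene. The next 2, of 111 and 123 bp, lay at 42.4% and 50.5% of the gene, 3.62 kb apart, with 18.5 kb before and 21.0 kb after the pair. The last was 8 bp long, at 96.3% of the gene, in a stretch shared with the long noncoding RNA gene Gm38585. Notch4, best known from endothelial cells, had 5 clusters, none of them in the first 15.4 kb. Only 2 lay inside the gene, of 153 bp at 63.9% and of 64 bp at 98.4% of its length. The other 3, of 100, 117 and 199 bp, lay 1271, 1502 and 2670 bp beyond the gene's far end, inside the protein-coding gene Gpsm3. The gap of 131 bp between the clusters of 100 and 117 bp was the narrowest of the set. Notch4 thus took 3 of its 5 clusters from its neighbour.

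The 2 Delta-type ligand genes differed in place. At Dll1 both clusters lay near the 2 starts. One of 105 bp (chr17:15376709-15376813) lay 119 bp past the outer start and the other was the single CpG described above. From that CpG, 1.15 kb into the gene, to the far end there was none. At Dll4, 3 of 4 clusters lay before the start, at 2883, 1532 and 1116 bp, with lengths of 161, 124 and 1 bp. All 3 lay in the long noncoding RNA gene Gm14207, which also spans the start of Dll4. The fourth, of 58 bp, stood at 91.0% of the gene, 10.1 kb from its neighbour.

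Jag1, a Jagged-type ligand gene, had the longest cluster of the set. It ran over 1256 bp (chr2:137116236-137117491), from 971 bp before the start through the first 285 bp of the gene, and includes all of the promoter printed above. Of 27878 clusters, 21 were at least as long, this one included, and the longest of all was 2046 bp. The other Jag1 cluster was 77 bp long, at 77.3% of the gene, 26.8 kb away. Jag2, the other Jagged-type gene, had 4 clusters, 3 of them around the start without touching the promoter window. They lay 820 bp before the start (168 bp long) and 523 and 946 bp past it (65 and 80 bp long). The last, of 74 bp, lay at 82.1% of the gene after a gap of 16.7 kb.

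The targets encode repressors of the basic helix-loop-helix class. Hes1, the shortest gene of the set at 2.44 kb, had 5 clusters, more per kb than 99.8% of protein-coding genes had. Only 2 lay inside the gene, of 1 and 71 bp, with centres 0.80 and 1.79 kb from its end with the lower coordinate. On the lower side, clusters of 86 and 1 bp lay 2294 and 1590 bp outside the gene, in no listed gene. On the upper side a cluster of 243 bp lay 2243 bp outside, in the long noncoding RNA gene Gm32998. Heyl had 2 clusters of 89 bp each, both inside the gene, centred 0.15 and 12.5 kb from its end with the lower coordinate and 12.3 kb apart. The strand of Hes1 and Heyl was not matched, so these positions are not given from the start.

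**Figure D3:**
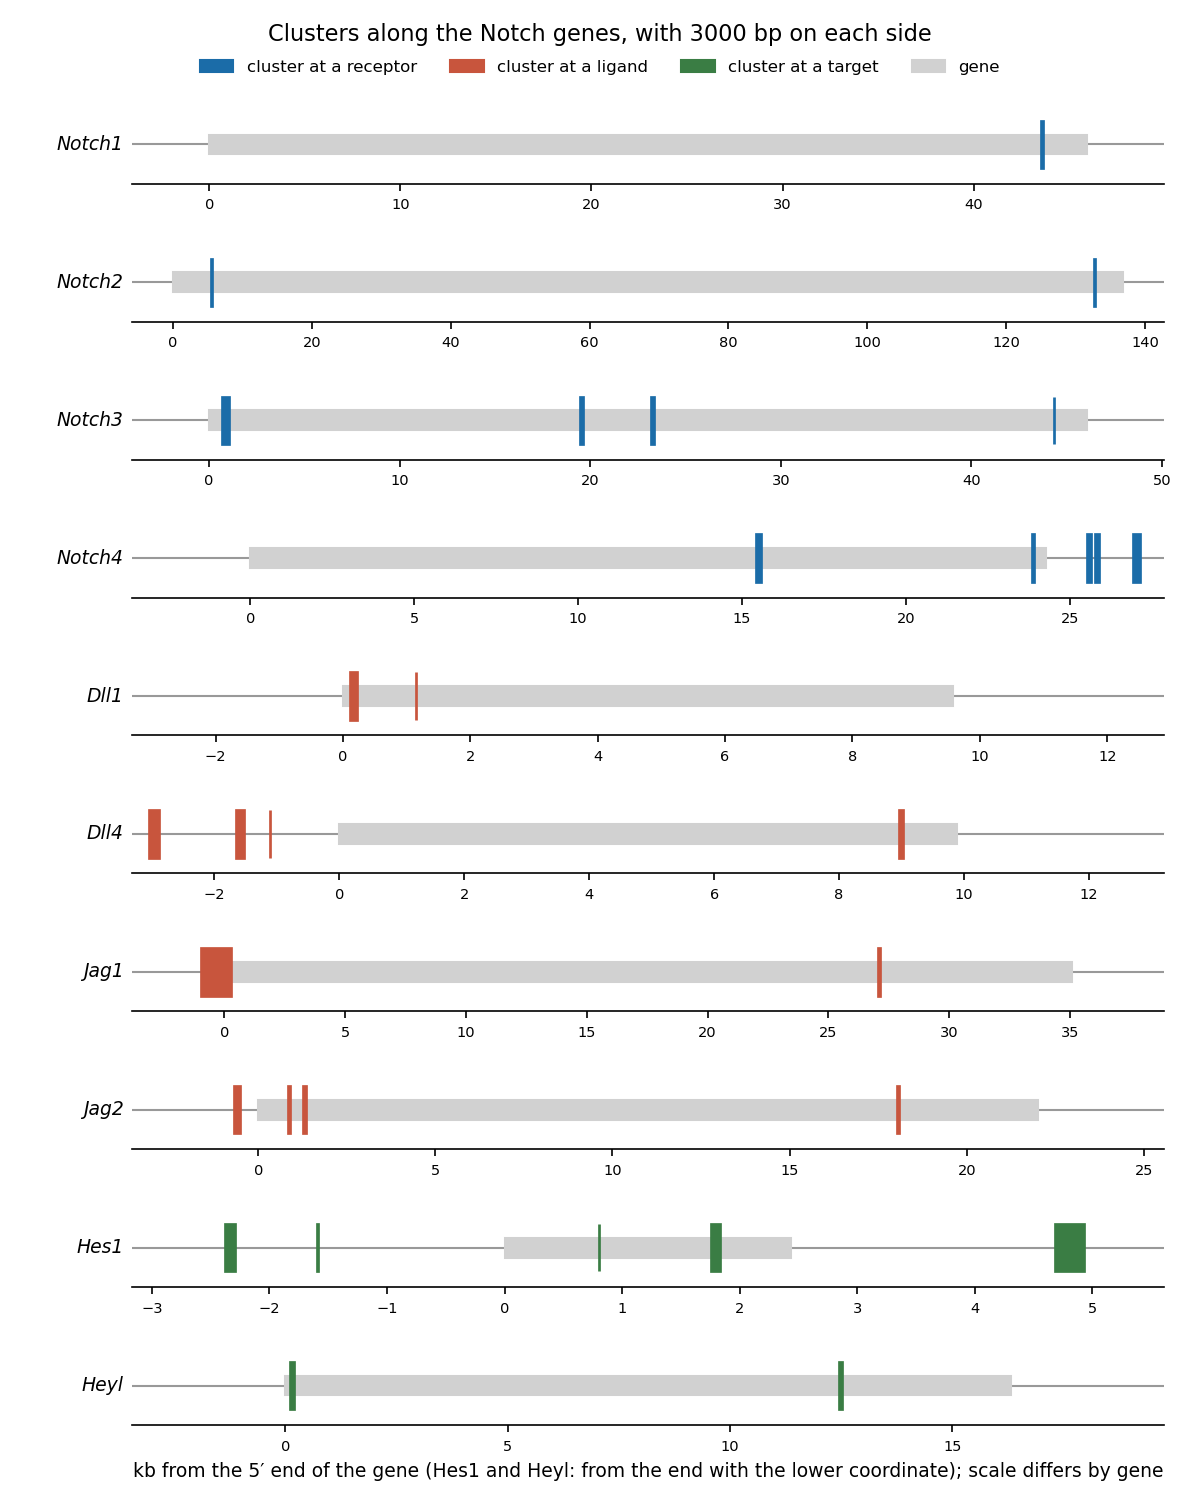
Clusters (coloured boxes, drawn to scale with an outline that keeps the shortest visible) along each Notch gene (grey bar), in kb from the gene's 5′ end, or from its end with the lower coordinate for Hes1 and Heyl, with 3000 bp of flank (line) on each side and a scale of its own for each gene. Dll1 has both clusters close to the 5′ end, Notch1 has 1 near the far end, and Notch4 and Dll4 have 3 each outside the gene.

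Over the 8 genes with a listed start, 24 clusters could be placed relative to it. Of these, 4 lay before the start, 1 lay across it, 5 lay within 1000 bp past it, 11 lay farther inside the gene and 3 lay beyond the far end. Within 1000 bp of a start on either side were 7 clusters, at 4 of the 8 genes (Notch3, Dll1, Jag1 and Jag2), beside 29.6% of the 17491 protein-coding genes with a listed start. Within 500 bp there were 3 clusters, at 2 of the 8 genes (Dll1 and Jag1), beside 24.3%. Notch1, Notch2, Notch4 and Dll4 had none within 1000 bp. Near the far end, in the last 10% of the gene's length, 5 of the 8 had a cluster (the 4 receptors and Dll4), beside 6.34% of protein-coding genes with a listed start. This cut was chosen after the positions were seen, and with the last 5% it was 3 of the 8, beside 3.67%. A share of the length is a longer stretch in a longer gene. The shares over all genes were not matched for gene length or for holding a cluster. With each gene divided into 3 equal parts, the 16 clusters centred inside the genes fell 6 in the part next to the start, 3 in the middle and 7 in the last.

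The lengths were like those of the whole list. The median was 89 bp at the Notch genes and 89 bp over all clusters, with a middle range over all clusters of 57 to 145 bp that took in 19 of the 31. By role the median was 109.5 bp for receptors (8 to 324 bp), 78.5 bp for ligands (1 to 1256 bp) and 86 bp for targets (1 to 243 bp). Clusters of at most 2 bp were 4 of the 31 (1 at Dll1, 1 at Dll4 and 2 at Hes1), or 12.9%, beside 10.4% of all clusters. No receptor had one.

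**Figure D4:**
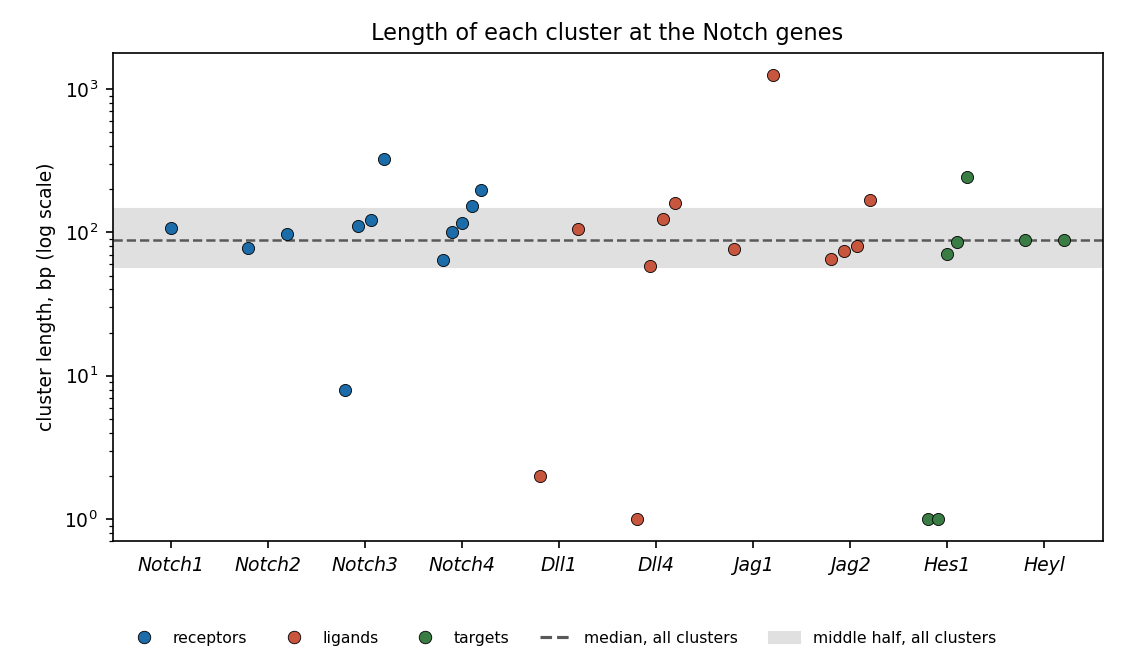
Length of each of the 31 clusters (y axis, bp, log scale) by gene, coloured by role, with the median (dashed, 89 bp) and the range from the lower to the upper quartile (grey, 57 to 145 bp) over all 27878 clusters. The Jag1 cluster of 1256 bp stands above all others, and the 4 clusters of at most 2 bp belong to Dll1, Dll4 and Hes1.

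The 21 gaps between neighbouring clusters of one gene had a median of 2392 bp, against 4527 bp over 11916 gaps of all protein-coding genes, and ranged from 131 bp to 127 kb. The 95% binomial interval of the Notch median, 956 to 12251 bp, takes in the median of all genes, so the medians are not shown to differ. The interval treats the 21 gaps as independent, although many of them come from the same gene. Overlapping gene windows count some of the 11916 gaps more than once. By role the median gap was 5.94 kb at the receptors, 1.28 kb at the ligands and 2.39 kb at the targets. Gaps of less than 1000 bp were 6 of the 21 at the Notch genes, beside 27.9% of all, and gaps over 10 kb were 7 of the 21, beside 37.8%. With 1000 bp of flank in place of 3000, the median gap of the Notch genes was 10254 bp, so this value rests on clusters in the outer flanks.

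**Figure D5:**
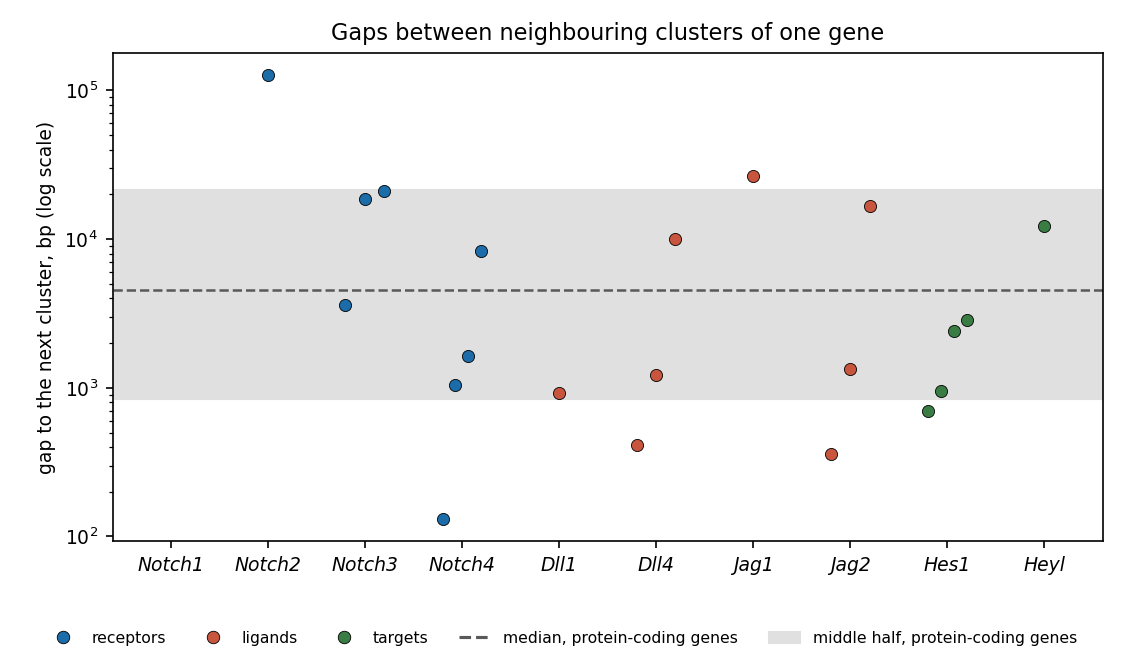
Gap from each cluster to the next one of the same gene (y axis, bp, log scale) by gene and role, with the median (dashed, 4527 bp) and the range from the lower to the upper quartile (grey) over all protein-coding genes. Notch1 has 1 cluster and so no gap, and the gap of 127 kb in Notch2 stands above all others.

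The surroundings of the genes differed as well. In the gene with 100 kb on each side, Notch4 had 10.3 clusters per 100 kb, Heyl 5.55, Hes1 5.43, Jag2 5.41 and Dll4 4.76. The median over all protein-coding genes was 1.43. Notch3 had 2.84, Notch1 2.03 and Dll1 1.91, while Jag1 with 0.85 and Notch2 with 0.59 lay below that median. The 1256-bp cluster of Jag1 therefore stood in a stretch with few others.

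Of 38 other genes of the pathway, 29 held a cluster, beside 47.8% of all protein-coding genes. They held 89 clusters in all, or 0.35 per 10 kb of window, against 0.19 over all protein-coding windows. Of these 0 were called, where 0.0670 calls would fall at the overall share of 0.0753%, and the count allows up to 3.37%, so it says nothing particular about these genes. The other targets all had at least 1 (6 of 6 genes, 12 clusters), led by Hes7, a gene of the somite clock, with 6, and Hes5 with 2. Of the genes of the transcription complex 6 of 6 had one, with 29 clusters, 14 of them at Maml3, a coactivator gene, while Rbpj had 1. Of the other ligands and inhibitors 5 of 5 had one, with 6 at Dll3, a Delta-type protein that does not activate receptors, and 3 each at Dlk2 and Numbl. The glycosyltransferases, which add sugars to the receptors, had 5 clusters at 4 of 5 genes, with 2 at Rfng and 0 at Mfng. The ubiquitin ligases had 21 at 5 of 7 genes, with 9 at Dtx1, 8 at Neurl1a and 2 at Mib2. The proteases that cut the receptors, with their subunits, had 7 clusters at 3 of 9 genes, with 5 at Furin, and 1 each at Adam10 and Psenen. Among those with 0 were Adam17, a receptor-cutting protease gene, and Ncstn and Aph1a, which encode parts of the gamma-secretase complex. These counts come from windows of unlike length. Per 10 kb of window, the other targets held 1.93 clusters, the other ligands and inhibitors 0.73 and the glycosyltransferases 0.44. The ubiquitin ligases held 0.38, the transcription complex 0.23 and the proteases 0.20. The 14 clusters of Maml3 lay in a window of 424000 bp, or 0.33 per 10 kb. Whether any of these lists differs from the rest was not tested.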

How the data were processed

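Reduced representation bisulfite libraries of 4 fixed and 4 live samples were sequenced as 1 pool, per the labels' protocols. Bismark 0.14.4, Trim Galore 0.4, ChIPseeker 1.12.1 and build mm10 are named, per the submitters' processing notes. The region caller, its coverage filter and threshold were not given in the sources used here. Per the file headers and contents, the authors deposited cluster coordinates in 2 lists and a table of called regions, whose p-value column and methylation difference are the authors' deposited values; the difference, a fraction, is given here in percentage points. Whether these p-values were adjusted is not stated.

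Clusters of both lists were pooled and counted against RefSeq genes of GRCm38.p6 by overlap of at least 1 bp, with pandas 2.3.3 and numpy 2.4.6 in Python 3.11.15; scipy 1.17.1 gave intervals of medians and matplotlib 3.10.9 the plots. The overlap count was tested on simulated data. Starts and strand came from the RefSeq promoter sequences. No test was run, since the lists hold no value per sample; a count of 0 is given with the share that 3 counts would make. Exon and intron bounds were not used here. The members and gene lists were chosen with earlier results of these data known. All 10 members are named, with up to 3 genes with most clusters of each further list, of which some are not reported here though counts include them; Rbpj, Mfng, proteases at 0 and genes that share a cluster with a member were added after their values were seen.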

Additional observations from a re-analysis of the deposited data

How the results depend on the processing

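The count of 31 clusters was 22 with 1000 bp of flank, 21 in the gene alone, 40 with 10000 bp, 30 where the whole cluster had to lie inside the window, 26 with clusters of at least 50 bp and 28 with neighbours within 500 bp merged. All 10 genes kept a cluster in each of the 5 alternatives run for that count, and the number of called clusters was 0 of 40 with 10000 bp of flank too, which allows up to 7.5%. The median length was between 84.5 and 102.5 bp in its 3 alternatives. The median gap of 2392 bp was 10254 bp with 1000 bp of flank and 2012 bp with 10000 bp. Of the clusters near a listed start, 7 within 1000 bp, 3 lay within 500 bp and 10 within 3000 bp, since 4 of the 7 lie 523 to 946 bp away. The 5 genes with a cluster in the last 10% of their length were 3 with the last 5% and 6 with the last 20%, cuts added after the data were seen. No paired analysis was possible because the lists hold no value per sample, and no replicate could be left out either. The unknown read depth limits what clusters that were not called can show.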
